A study of Mus musculus with 6 samples.

Results

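The collagen genes were followed by RNA-seq in 6 libraries, each made from cultured fibroblasts of mammary tumours in mice. A gene was taken as a collagen gene if its symbol had the form Col, a type number, the letter a and a chain number. This gave 44 of the 48368 gene symbols in the joined count table, and these 44 genes belong to 27 collagen types. They were divided into 11 fibrillar genes, 9 network genes, 9 FACIT genes (fibril-associated collagens with interrupted triple helices), 6 beaded filament genes, 2 multiplexin genes, 4 transmembrane genes and 3 others (Col7a1, Col26a1 and Col28a1).

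All libraries came from primary cancer-associated fibroblasts (CAFs), which are the fibroblasts of a tumour, grown in culture after tumours of MMTV-PyMT mice had been digested and spun to part them from the tumour organoids. In these mice the MMTV promoter drives the polyomavirus middle T antigen in mammary epithelium, so the transgene was shared by both groups. The HET group (Hic-5+/-) held 3 libraries and the KO group (Hic-5-/-) held 3. Hic-5 is a LIM-domain adaptor of focal adhesions encoded by Tgfb1i1, and no wild-type library was used here. Strain, age and passage are not given in the labels, and the series text speaks of technical triplicates, although the titles carry different numbers except for 1 that HET replicate 3 and KO replicate 3 share. Counts of libraries with the same label differed by much more than sampling would give (chi-square of 155 to 338 for each degree of freedom), so the p-values below measure the spread between these libraries, whatever its source.

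Collagens are proteins of 3 chains wound into a triple helix. Fibrillar collagens such as types I, III and V build the banded fibrils of connective tissue, and FACIT collagens sit on the fibril surface. Type IV forms the network of basement membranes, type VI forms beaded microfibrils around cells, and multiplexins lie at basement membranes. In tumours, fibroblasts are a main source of the fibrillar collagens, whose deposition and crosslinking stiffen the stroma.

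The deposited estimated counts summed to between 24954273 and 42470598 per library, and 3 counts, the floor used here, were worth between 0.0706 and 0.12 CPM (counts scaled to a library of equal size). CPM values below are scaled by TMM factors, which correct for library composition. Tgfb1i1 (chromosome 7, 128246812 to 128255699, GRCm38) was measured first. Its level was 223 CPM in HET replicate 1, 348 in HET replicate 2 and 125 in HET replicate 3. In KO replicates 1, 2 and 3 it was 90.4, 0.232 and 156 CPM, so that the targeted transcript was nearly absent from KO replicate 2 alone and KO replicate 3 lay within the HET range (log2 fold change -1.495 ± 1.54, SE, edgeR adjusted p = 0.756). The values do not resolve exons, and HET and KO below mean only that a library is labelled so. KO replicate 2 also stood apart in cell type markers. The fibroblast genes Thy1 and Dcn were at 0.981 and 0.775 CPM there and at 55.0 CPM or more in the other 5 libraries, while Vim, the mesenchymal intermediate filament gene, had 2869.7 CPM and was between its lowest and highest values elsewhere (2019.7 and 4387 CPM). Pdgfra, Pdgfrb, Lum and S100a4 were also lowest there, but Fn1 had 4176 CPM, within its range elsewhere (1263 to 4672 CPM). The list of 9 fibroblast markers summed to 7415 CPM in KO replicate 2. Its sum was 7246 and 7752 CPM in KO replicates 1 and 3, and 10147 to 10794 CPM in HET libraries. The epithelial genes Krt8, Krt18, Cdh1 and Epcam reached 13.7, 37.9, 14.6 and 5.66 CPM there, against at most 2.93 CPM for any of them elsewhere. Krt19, the most abundant epithelial marker of the list, went the other way, with 0.542 CPM in KO replicate 2 and 12.97 to 64.1 CPM elsewhere. Over the list of 7 epithelial markers the summed CPM ran from 16.8 to 65.6 in HET libraries and from 26.3 to 80.8 in KO libraries. The leukocyte list of 6 genes summed to between 28.1 and 111 CPM in HET libraries, and to between 11.7 and 77.2 CPM in KO libraries. Its defining gene Ptprc reached 8.19 CPM in HET replicate 2, as well as 5.67 CPM in KO replicate 3, and the other 4 libraries had 0.0455 CPM or less. The part of these markers in the collagen values was not tested, and fewer cells of a type cannot be told apart from less RNA per cell in these bulk libraries.

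Most well expressed collagens had a lower level on average in libraries labelled KO, but no collagen gene passed the adjusted threshold of 0.05 in edgeR's quasi-likelihood test, the share over all tested genes being 0%. Of the 44 genes, 33 passed the filter on low counts and were tested. Of these, 22 had a log2 fold change (KO over HET) below 0, as did 49.1% of all 17584 tested genes, and 11 had one above 0. A log2 fold change of -1 or less was found in 16 of the 33 (8.48% of all tested genes), and one of 1 or more in 4 (6.44%). The median log2 fold change was -0.93 over the tested collagens and 0.01 over all tested genes. At an unadjusted p under 0.05, 7 collagens were lower in KO (4.29% of all tested genes) and 1 was higher (4.3%). Limma-voom also called 0 collagens, with 8 at an unadjusted p under 0.05 (8.75% of all tested genes). DESeq2 called 4 of the 31 collagens to which it gave an adjusted p, all lower in KO, where it called 0.942% of all genes lower and 0.391% higher. The smallest adjusted p of a collagen in edgeR was 0.579.

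The direction went with abundance, taken as the mean CPM over both labels. All 13 collagens with a mean above 100 CPM over the 6 libraries had a log2 fold change below 0, with a median of -1.85, where 56.1% of all 2152 tested genes of that abundance did, with a median of -0.07. Of the 17 tested collagens with a mean under 10 CPM, 7 had a log2 fold change below 0, with a median of 0.27. Of all 6936 tested genes of that abundance 50.3% did, with a median of -0.005. The split by abundance was chosen after the values had been seen. Since the mean covers both labels, high HET values alone can bring a gene above 100 CPM. Col3a1, Col4a5, Col6a2 and Col6a3 had KO means of 40.9, 70.3, 92.6 and 76.3 CPM. Their place above 100 CPM is therefore not independent of the direction. In 8 collagens every KO library lay below every HET library (7.4% of all tested genes), namely Col1a1, Col1a2, Col3a1, Col4a5, Col12a1, Col18a1, Col27a1 and Col28a1. In 1, Col17a1, every KO library lay above every HET library (8.09%).

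**Figure D1:**
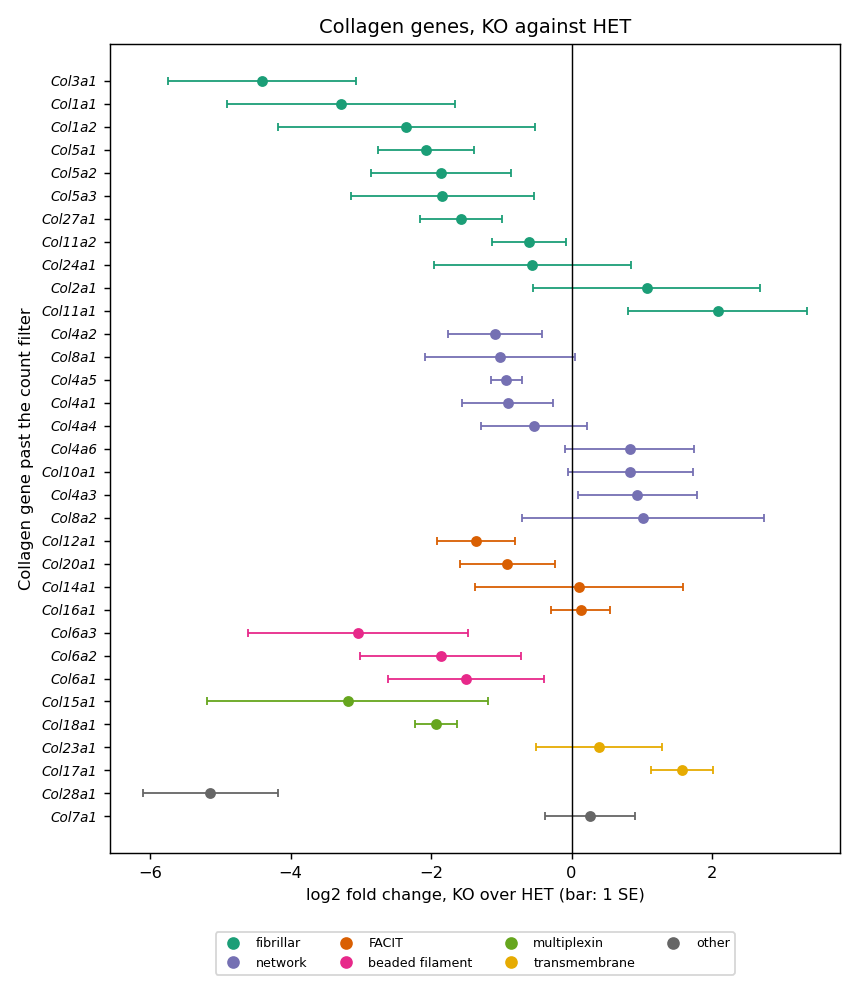
Log2 fold change of KO over HET (horizontal axis, bars of 1 SE) for the 33 collagen genes past the count filter (vertical axis), coloured by class. Fibrillar, beaded filament and multiplexin genes lie mostly to the left of 0, down to -5.14 for Col28a1 among the others, and the largest value to the right is 2.08 for Col11a1.

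The fibrillar class had 9 of 11 members with a log2 fold change below 0 and a median of -1.84. Col1a1 and Col1a2, the chains of type I collagen and its main fibril component, had the highest mean CPM over the 6 libraries, to which HET replicate 1 added most. In HET replicate 2 Col12a1 and Col5a2 were above both, and in the KO mean Col12a1 (601 CPM) was the highest. Col1a1 (chromosome 11, 94936224 to 94953042) was at 4948, 1218 and 525 CPM in the HET libraries and at 411, 2.56 and 274 CPM in the KO libraries, each in the order of replicates 1 to 3, as below. Col1a2 (chromosome 6, 4504814 to 4541544) stood at 5109, 1317 and 1009 CPM in HET and at 876, 0.491 and 577 CPM in KO. For both chains the groups did not overlap, HET replicate 1 was far above the other libraries, and KO replicate 2 was far below them, with 99 counts of Col1a1 and 19 of Col1a2. The log2 fold changes were -3.28 ± 1.63 (SE) and -2.35 ± 1.83 (edgeR adjusted p = 0.592 and 0.687). Leaving out KO replicate 2 gave -2.70 and -1.77, and leaving out HET replicate 1 gave -1.92 and -1.25.

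Col3a1, whose product co-assembles with type I collagen in fibrils, had the lowest log2 fold change in edgeR among the 13 collagens with a mean above 100 CPM, an order that did not hold in limma-voom, where Col1a2 (-4.91) and Col1a1 (-4.47) were below it (-4.26). Col3a1 (chromosome 1, 45311538 to 45349706) stood at 1873, 629.8 and 95.4 CPM in HET and at 9.44, 21.8 and 91.3 CPM in KO. The groups were separated only by the small gap between HET replicate 3 and KO replicate 3. The log2 fold change was -4.41 ± 1.34, with an adjusted p of 0.579 in edgeR and 0.00667 in DESeq2. It was -6.36 without both libraries of the title number that HET replicate 3 and KO replicate 3 share, and -3.15 without HET replicate 1.

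Type V collagen, which sets fibril diameter by seeding type I fibrils, had all 3 chains lower on average. Col5a1 (chromosome 2) stood at 1271, 644 and 186 CPM in HET and at 129, 149 and 223 CPM in KO, so that KO replicate 3 lay above HET replicate 3 (log2 fold change -2.07 ± 0.68, unadjusted p = 0.0214 in edgeR, adjusted p = 0.579). Without HET replicate 1 it was -1.31. Col5a2, a neighbour of Col3a1 with 24614 bases between them, stood at 2565, 2073 and 667 CPM in HET and at 312, 71.8 and 1084 CPM in KO (-1.85 ± 1.00). KO replicate 3 was again within the HET range, while the lowest value was that of KO replicate 2. Leaving out KO replicate 3 gave -3.20 and leaving out KO replicate 2 gave -1.36. Col5a3, the rarest of these chains, stood at 51.6, 3.44 and 2.16 CPM in HET and at 1.55, 6.25 and 8.21 CPM in KO. Its log2 fold change of -1.84 ± 1.30 rested on HET replicate 1, without which it was 0.93.

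Among the scarce fibrillar genes, Col27a1, a short fibrillar collagen, stood at 3.22, 1.96 and 2.43 CPM in HET and at 0.5005, 0.517 and 1.55 CPM in KO. The groups did not overlap (log2 fold change -1.58 ± 0.58, unadjusted p = 0.0336). Type XI collagen, the partner of type II in cartilage fibrils, went the other way in its alpha 1 chain. Col11a1 stood at 0.992, 2.90 and 2.86 CPM in HET and at 18.9, 0.232 and 9.56 CPM in KO, with KO replicates 1 and 3 above every HET library and KO replicate 2 below them (2.08 ± 1.27). Col2a1, the main cartilage collagen, reached 4.29 CPM in KO replicate 2 and at most 1.31 CPM elsewhere. Col11a2 and Col24a1 stayed at 2.59 CPM or less in every library.

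**Figure D2:**
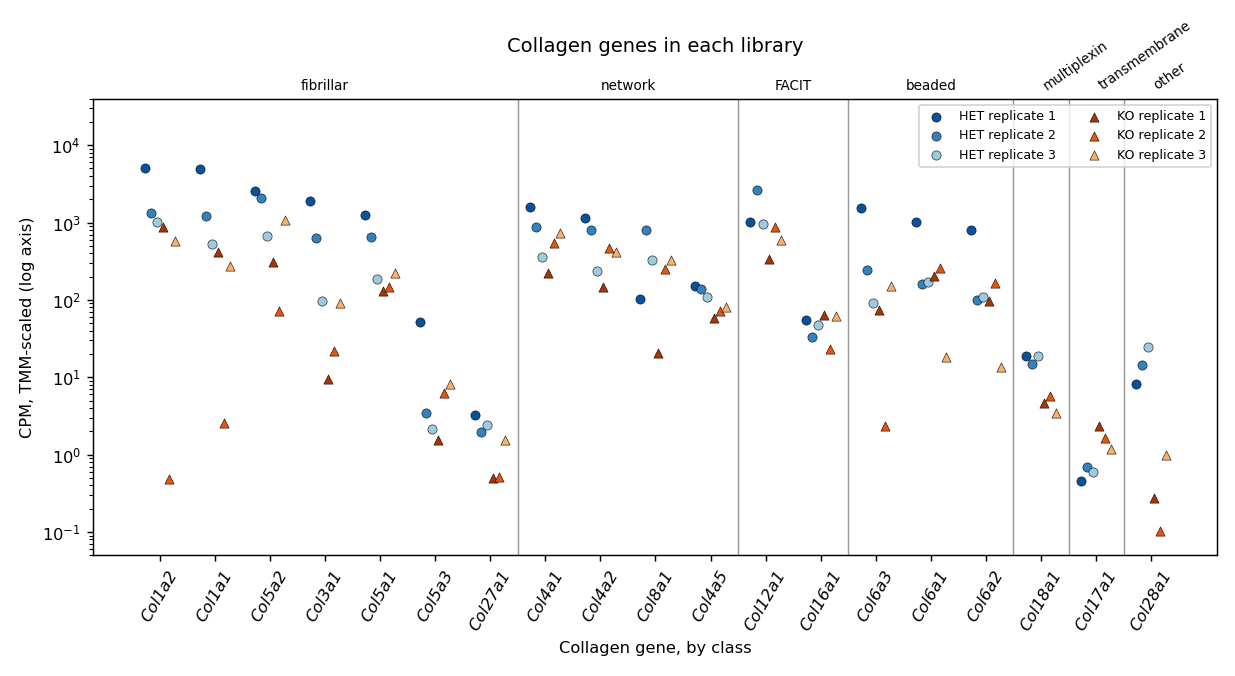
TMM-scaled CPM (vertical, log axis) in each of the 6 libraries for the 19 collagen genes with a mean of at least 10 CPM or an unadjusted p under 0.05, ordered by class along the horizontal axis. Circles are HET and triangles are KO libraries, and each point is 1 library. KO replicate 2 lies lowest for Col1a1, Col1a2, Col5a2 and Col6a3 but not for Col4a1, Col4a2, Col6a1 or Col6a2.

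The FACIT class had 4 of 9 members past the filter, 2 lower and 2 higher. Col12a1, the type XII chain on the surface of type I fibrils, was among the most abundant collagens. It stood at 1010.1, 2659 and 966 CPM in HET and at 334, 876 and 593 CPM in KO, and the groups did not overlap (log2 fold change -1.36 ± 0.56, unadjusted p = 0.0482, adjusted p = 0.579 in edgeR). It was at 876 CPM in KO replicate 2, where Col1a2 was at 0.491 CPM. Without HET replicate 2 the log2 fold change was -0.72. Col16a1, a FACIT of fibrillin microfibrils and collagen fibrils, did not separate the labels. It stood at 55.6, 33.3 and 47.2 CPM in HET and at 63.1, 23.4 and 62.4 CPM in KO (0.13 ± 0.42). Col14a1, the type XIV chain of mature fibrils, stayed at 3.56 CPM or less, and Col20a1 at 1.29 CPM or less. The 5 other FACIT genes, Col9a1, Col9a2, Col9a3, Col19a1 and Col22a1, were under the filter.

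Type VI collagen, the only beaded filament type here, is a heterotrimer of alpha 1, alpha 2 and a longer chain such as alpha 3. All 3 tested chains had a log2 fold change below 0, but none separated the labels. Col6a1 (chromosome 10, 76708792 to 76726168) stood at 1025, 163 and 169 CPM in HET and at 204, 258 and 18.4 CPM in KO (-1.498 ± 1.11). Col6a2 (chromosome 10, 76595762 to 76623630) stood at 803, 98.3 and 108 CPM in HET and at 97.9, 166 and 13.6 CPM in KO (-1.86 ± 1.15). For both, HET replicate 1 was the highest library, KO replicate 3 the lowest, and the other 4 lay close together. Without HET replicate 1 the log2 fold changes were -0.043 and -0.15. Col6a3 (chromosome 1) followed another order. It stood at 1544, 247 and 92.3 CPM in HET and at 74.6, 2.35 and 152 CPM in KO, with KO replicate 2 the lowest (-3.04 ± 1.57). Its log2 fold change was -2.47 without KO replicate 2 and -1.15 without HET replicate 1. The chains encoded by Col6a4, Col6a5 and Col6a6 reached at most 0.354 CPM in any library and were under the filter.

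The network class had 5 of 9 members with a log2 fold change below 0 and a median of -0.54. Col4a1 and Col4a2, the chains of the common type IV network, overlapped between the labels. Col4a1 stood at 1566, 874 and 360.5 CPM in HET and at 221, 546 and 725 CPM in KO (-0.91 ± 0.65). Col4a2 stood at 1149, 802 and 239 CPM in HET and at 149, 468 and 416 CPM in KO (-1.08 ± 0.67). Both were lowest in KO replicate 1, where the type I chains were lowest in KO replicate 2. Without HET replicate 1 the log2 fold changes were -0.31 and -0.59. Col4a5 (chromosome X, 141475385 to 141689234), a chain of the less common type IV networks, stood at 151, 140.0 and 109.6 CPM in HET and at 59.2, 71.5 and 80.2 CPM in KO. Its SE was the smallest among the 13 collagens with a mean above 100 CPM, and every KO library was below every HET library (log2 fold change -0.93 ± 0.22). Its adjusted p was 0.579 in edgeR and 0.043 in DESeq2. Leaving out each library in turn gave -1.05 to -0.82.

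Col4a6, which lies head to head with Col4a5 with 1308 bases between them, did not follow it. It stood at 0.708, 9.56 and 6.28 CPM in HET and at 8.55, 16.5 and 4.36 CPM in KO (0.83 ± 0.92). Col8a1, a chain of the short-chain type VIII network, stood at 104, 793 and 328 CPM in HET and at 20.3, 252 and 332 CPM in KO (-1.02 ± 1.07). Its extremes, HET replicate 2 and KO replicate 1, differ from those of the type I chains, and without HET replicate 2 its log2 fold change was -0.10. Its partner Col8a2 reached 26.9 CPM in KO replicate 2 and at most 5.81 CPM elsewhere, so that its log2 fold change, above 0 with all 6 libraries, was -4.49 when KO replicate 2 was left out. Col4a3, Col4a4 and Col10a1, the last a marker of hypertrophic cartilage, stayed at 1.43 CPM or less.

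The gene starts of Col4a1 and Col4a2 overlap by 22 bases on opposite strands of chromosome 8, so their promoters overlap, and without a stated use of strand in counting those 22 bases cannot be assigned. The Col6a1 and Col6a2 genes, in contrast, lie on the same strand with 85161 bases between them. The promoter windows of these pairs are shown because their transcripts kept a steady ratio, described below, and those of Col1a2 and Col3a1 because these abundant fibrillar genes were apart between the labels. Each runs from 250 bases before to 50 bases from the start site on, is taken from RefSeq (GRCm38.p6) and is written 5′ to 3′ on the strand of the gene. The start site used for Col1a2 (4505618) and that for Col6a1 (76726044) lie inside the gene spans given above, not at their starts. Capitals mark the CCAAT box, the GC box GGGCGG and the TATA box TATAAA, each on either strand. Col6a2 has 2 windows in the table, and the one at the annotated gene start is shown.
Col4a1, chr8:11312777-11313076, minus strand: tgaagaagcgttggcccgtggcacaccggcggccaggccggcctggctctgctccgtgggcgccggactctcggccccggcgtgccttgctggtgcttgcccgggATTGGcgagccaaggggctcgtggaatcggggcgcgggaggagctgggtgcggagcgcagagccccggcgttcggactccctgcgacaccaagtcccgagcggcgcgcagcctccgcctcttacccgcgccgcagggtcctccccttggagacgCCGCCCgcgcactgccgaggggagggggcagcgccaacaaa
Col4a2, chr8:11312555-11312854, plus strand: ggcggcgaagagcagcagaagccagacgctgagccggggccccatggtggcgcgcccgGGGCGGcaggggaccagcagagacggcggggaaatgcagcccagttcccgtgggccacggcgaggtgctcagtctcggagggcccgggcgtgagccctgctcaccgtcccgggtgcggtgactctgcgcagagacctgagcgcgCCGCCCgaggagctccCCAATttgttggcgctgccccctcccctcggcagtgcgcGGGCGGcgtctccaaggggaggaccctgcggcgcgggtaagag
Col6a1, chr10:76725995-76726294, minus strand: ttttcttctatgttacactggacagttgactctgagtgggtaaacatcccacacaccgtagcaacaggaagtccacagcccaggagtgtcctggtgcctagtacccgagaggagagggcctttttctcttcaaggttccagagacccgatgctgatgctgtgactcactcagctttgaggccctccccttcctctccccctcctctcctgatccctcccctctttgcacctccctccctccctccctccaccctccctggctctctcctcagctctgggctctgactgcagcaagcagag
Col6a2, chr10:76623581-76623880, minus strand: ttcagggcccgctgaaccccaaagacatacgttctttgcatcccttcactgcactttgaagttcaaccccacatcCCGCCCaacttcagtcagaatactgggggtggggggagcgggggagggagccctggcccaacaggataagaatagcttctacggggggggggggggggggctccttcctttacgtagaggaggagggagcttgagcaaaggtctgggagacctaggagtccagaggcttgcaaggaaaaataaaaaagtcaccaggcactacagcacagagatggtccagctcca
Col1a2, chr6:4505368-4505667, plus strand: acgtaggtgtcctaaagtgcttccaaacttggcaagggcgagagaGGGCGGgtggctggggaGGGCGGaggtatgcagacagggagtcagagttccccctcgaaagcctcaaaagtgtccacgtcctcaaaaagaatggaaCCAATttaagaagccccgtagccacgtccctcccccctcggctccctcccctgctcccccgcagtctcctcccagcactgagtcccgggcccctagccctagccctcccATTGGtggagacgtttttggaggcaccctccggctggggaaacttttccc
Col3a1, chr1:45311288-45311587, plus strand: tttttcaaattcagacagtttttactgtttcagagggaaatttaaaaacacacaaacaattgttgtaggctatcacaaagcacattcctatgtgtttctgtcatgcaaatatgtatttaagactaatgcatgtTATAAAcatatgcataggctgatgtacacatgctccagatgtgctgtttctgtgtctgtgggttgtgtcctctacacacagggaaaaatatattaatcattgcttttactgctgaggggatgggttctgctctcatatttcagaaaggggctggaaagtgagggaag

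Both type IV windows were rich in G and C (74% and 73.7%) and share 78 bases. Each held 1 CCAAT box, and the GC box occurred once in that of Col4a1 and 3 times in that of Col4a2. The Col4a1 GC box, 9 bases after its start site, and the Col4a2 GC box 7 bases after its own are the same bases on opposite strands. The Col1a2 window held 2 CCAAT boxes, 1 of them 109 bases before the start site and 1 on the start site itself, and 2 GC boxes. The Col3a1 window held 1 match to TATAAA, 117 bases before the start site, and was 37.7% G and C. The printed Col6a2 window held 1 GC box, and the Col6a1 window held none of the 3 motifs. Over the 38 windows of the 35 collagen genes matched in the table, the CCAAT box was found in 34.2% (37.4% of all 32851 windows), the GC box in 60.5% (35.7%) and the TATA box in 13.2% (13.6%). The median G and C content was 59.8% for collagen windows and 52.7% for all, and matches are descriptions of these letters in these windows. The genes not matched were Col1a1, Col2a1, Col4a3, Col5a2, Col9a3, Col12a1, Col14a1, Col22a1 and Col26a1.

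The multiplexins, whose C-terminal fragments are known as endostatin-type inhibitors of angiogenesis, were both lower on average. Col18a1 (chromosome 10, 77052178 to 77166548) stood at 18.9, 14.8 and 18.9 CPM in HET and at 4.66, 5.71 and 3.45 CPM in KO. It had the smallest unadjusted p of the collagens (0.000525). The means were 17.5 ± 2.38 and 4.61 ± 1.13 CPM (SD, n = 3 each), and the log2 fold change was -1.93 ± 0.30, with an adjusted p of 0.579 in edgeR and 9.33e-06 in DESeq2. KO replicates 1 and 3, in which Tgfb1i1 transcript was present, lay as far below the HET libraries as KO replicate 2 did. Leaving out each library in turn gave -2.11 to -1.75. Col15a1, the other multiplexin, was spread over a far wider range. It stood at 20.2, 1.99 and 0.353 CPM in HET and at 0.0682, 0.0258 and 2.42 CPM in KO, so that its -3.19 ± 2.00 came with overlapping groups, and leaving out HET replicate 1 gave -0.51, while leaving out KO replicate 3 gave -7.18.

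Col28a1, a type XXVIII chain with von Willebrand factor A domains, had the lowest log2 fold change of the collagens in edgeR with all 6 libraries. Col28a1 (chromosome 6, 7997808 to 8192617) stood at 8.08, 14.2 and 24.98 CPM in HET and at 0.273, 0.103 and 0.991 CPM in KO. No libraries overlapped between the labels, and the KO values came from 12, 4 and 25 counts. The log2 fold change was -5.14 ± 0.96, with an unadjusted p of 0.00143 and an adjusted p of 0.579 in edgeR and an adjusted p of 7.47e-07 in DESeq2. It ran from -6.34 to -4.63 when each library was left out in turn. Col7a1, the anchoring fibril collagen of epithelial basement membranes, did not separate the labels. It stood at 10.7, 3.70 and 2.75 CPM in HET and at 6.17, 3.82 and 10.6 CPM in KO (0.27 ± 0.64).

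The transmembrane collagens were the only class with no tested member below 0, at very low levels. Col17a1, a hemidesmosome component of epithelial cells, stood at 0.460, 0.683 and 0.588 CPM in HET and at 2.37, 1.63 and 1.19 CPM in KO. Every KO library was above every HET library (log2 fold change 1.58 ± 0.44, unadjusted p = 0.011, adjusted p = 0.579 in edgeR and 0.176 in DESeq2). It was highest in KO replicate 1, where the epithelial genes Krt8, Krt18, Cdh1 and Epcam were at 0.227 CPM or less and Krt19 at 27.2 CPM. In KO replicate 2 those 4 genes were highest and Krt19 lowest. The part of these markers in the Col17a1 values was not tested. Col23a1 stayed between 0.142 and 1.81 CPM, with overlapping groups. Col13a1 and Col25a1 were under the filter, and Col13a1 had 1 count in HET replicate 2 and none in the other 5 libraries.

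In all, 11 collagen genes were under the filter and reached at most 0.496 CPM. Of these, 4 had no library above 3 counts, so that for those no difference was detectable at this depth.

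The total of collagen transcript was highest in HET replicate 1, similar in HET replicate 3 and KO replicate 3, and lower in KO replicates 1 and 2. Of all counts, collagen genes took 2.17% in HET replicate 1, 1.09% in HET replicate 2 and 0.494% in HET replicate 3. The same share was 0.311%, 0.330% and 0.474% in the KO libraries, in the order of their numbers. Every KO library was below every HET library, but HET replicate 3 and KO replicate 3 were close together and 3 libraries against 3 cannot give an exact permutation p below 0.1. HET replicate 1 was the highest library for 15 of the 33 tested collagens, against 15.3% of all tested genes. KO replicate 1 was the lowest for 12 and KO replicate 2 for 11 (17.7% and 23.3% of all tested genes).

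To set genes of different length side by side, CPM were divided by the length in kilobases of each gene's principal transcript. On this scale Col1a2 was the leading collagen in HET replicates 1 and 3 and in KO replicate 1, at 955, 189 and 164 CPM per kb. It ranked 72nd of 46365 gene symbols in HET replicate 1. The order of the type I chains depends on the length used, since with summed exons in place of the principal transcript Col1a1 over Col1a2 was 1.83 in HET replicate 1, 0.985 in HET replicate 3 and 0.887 in KO replicate 1. Col5a2 led in HET replicate 2 and KO replicate 3, at 313 and 164 CPM per kb. KO replicate 2 was led by Col4a1 (82.5 CPM per kb), Col12a1 (76.1) and Col4a2 (72.6). Fibrillar genes made up 69.1%, 55.3% and 53.9% of the summed collagen CPM per kb in the HET libraries and 60.3%, 7.83% and 51.4% in the KO libraries. Network genes made up 11.9%, 25.2% and 22.5% in HET and 14.3%, 50.0% and 35.6% in KO. Beaded filament genes made up 16.2%, 5.32% and 10.2% in HET and 16.6%, 23.5% and 3.51% in KO. The fibrillar share of KO replicate 2 lay far below that of every other library, and its network share was the highest, while fibrillar genes took at least 51.4% in each of the other 5.

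**Figure D3:**
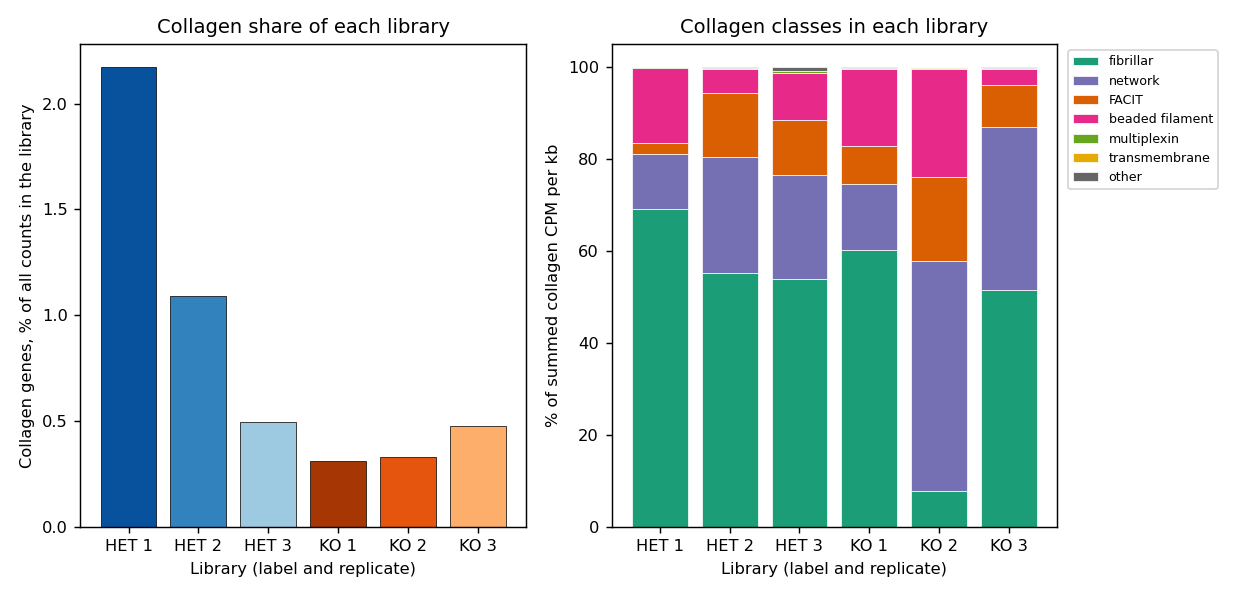
Left, percent of all counts in each library that fell on the 44 collagen genes (bars start at 0). Right, percent of the summed collagen CPM per kb in each class for the same 6 libraries. The fibrillar share is 7.83% in KO replicate 2 and between 51.4% and 69.1% in the other 5.

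Ratios between chains of the same collagen type were steady for some pairs and not for others. Col4a1 over Col4a2, in CPM per kb, was 1.33, 1.06 and 1.47 in the HET libraries and 1.45, 1.14 and 1.70 in the KO libraries. Its highest value was 1.60 times its lowest, although Col4a1 itself ranged from 221 to 1566 CPM. Col6a1 over Col6a2 was 1.23, 1.59 and 1.504 in HET and 2.01, 1.49 and 1.30 in KO, a spread of 1.63-fold, while Col6a1 ranged from 18.4 to 1025 CPM. These pairs kept their ratios whichever label the library had.

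For other chains the ratio moved with the library. Col1a1 over Col1a2 was 0.873, 0.834 and 0.469 in HET and 0.423, 4.70 and 0.428 in KO, so that HET replicate 3 was like KO replicates 1 and 3. The value in KO replicate 2 rests on 19 counts of Col1a2. Col6a3 over Col6a1 was 0.686, 0.692 and 0.249 in HET and 0.167, 0.00415 and 3.76 in KO, a spread of 907-fold. Col5a1 over Col5a2 was between 0.162 and 0.390 in 5 libraries and 1.63 in KO replicate 2. Col3a1 over Col1a1 was 0.403, 0.551 and 0.194 in HET and 0.0245, 9.10 and 0.355 in KO. Ratios of Col8a1 over Col8a2 (7.97 to 1182), Col4a5 over Col4a6 (4.40 to 217) and Col11a1 over Col11a2 (0.192 to 14.2) spread widely with overlapping groups, and Col4a3 over Col4a4 rested on as few as 1 count. The pairs of Col6a3 with Col6a1 and Col3a1 with Col1a1 were added after the data had been seen.

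**Figure D4:**
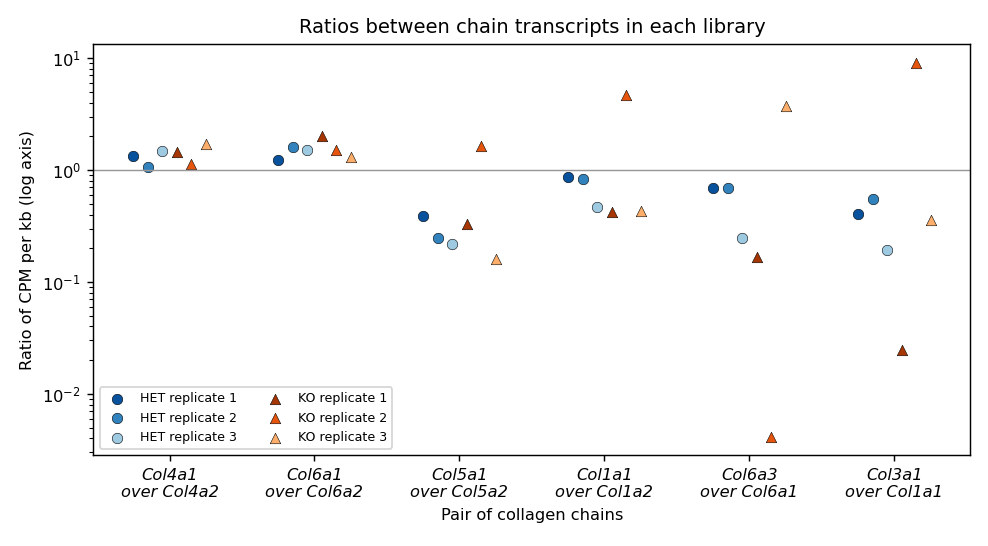
Ratio of CPM per kb between 2 collagen chains (vertical, log axis) for 6 pairs (horizontal), with 1 point per library, circles for HET and triangles for KO. Col4a1 over Col4a2 and Col6a1 over Col6a2 stay within 1.60-fold and 1.63-fold, while Col6a3 over Col6a1 spans 907-fold.

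Libraries labelled KO differed among themselves in which collagens were low. KO replicate 1 was below every HET library in 21 of the 33 tested collagens (29.5% of all tested genes), KO replicate 2 in 17 (33.4%) and KO replicate 3 in 13 (23.9%). They were above every HET library in 4, 6 and 4 collagens (29.2%, 34.4% and 25.7% of all tested genes). HET replicate 3 and KO replicate 3, which share a title number, differed in both directions. KO replicate 3 was lower than HET replicate 3 in 17 of 33 tested collagens (49.8% of all tested genes), with a median log2 ratio of -0.06. At least 2-fold lower, on the log2(CPM + 0.5) scale, were 6 collagens (8.61% of all tested genes), and at least 2-fold higher were 5 (5.51%).

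Of 10 collagen receptor genes, 8 were tested and none passed the adjusted threshold in edgeR. Log2 fold changes were below 0 in 6 (49.1% of all tested genes) and above 0 in 2. At an unadjusted p under 0.05, 2 were lower (4.29% of all tested genes). Those, Itga11 and Itga1, were subunits of collagen-binding integrins, and for both the groups overlapped. Itga11, which pairs with Itgb1 to bind fibrillar collagen, stood at 335, 300.0 and 44.3 CPM in HET and at 78.6, 11.9 and 26.7 CPM in KO. Itga1, of the integrin that favours type IV collagen, stood at 31.3, 37.2 and 10.86 CPM in HET and at 3.25, 10.93 and 4.68 CPM in KO. Ddr2, a receptor kinase for fibrillar collagen, stood at 665, 896 and 656 CPM in HET and at 335, 2.30 and 374 CPM in KO, with no overlap but a log2 fold change of -1.64 ± 1.34. Itgb1 and Mrc2, the latter an endocytic collagen receptor, overlapped between the labels (1247 to 2579 against 1616 to 3050.3 CPM for Itgb1, and 198 to 349 against 28.4 to 264 CPM for Mrc2).

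Of 15 genes for propeptide cleavage and crosslinking, 12 were tested and none passed the adjusted threshold in edgeR. Log2 fold changes were below 0 in 7 (49.1% of all tested genes) and above 0 in 5. At an unadjusted p under 0.05, 1 was lower (4.29% of all tested genes). That gene, Adamts2, which removes the amino-terminal propeptide of fibrillar procollagens, stood at 497, 186 and 49.5 CPM in HET and at 57.8, 22.2 and 22.8 CPM in KO (-2.83 ± 0.88). The groups overlapped, with KO replicate 1 above HET replicate 3. Lox, the crosslinking lysyl oxidase, stood at 4196, 5786 and 3368 CPM in HET and at 476, 149.9 and 3008 CPM in KO. Its groups did not overlap, with KO replicate 3 near the HET range (-1.88 ± 1.04). Loxl1 stood at 290.4, 295 and 294 CPM in HET and at 227, 35.6 and 166 CPM in KO (-1.04 ± 0.61). Loxl2 was at 0.155 CPM in KO replicate 2, where Col1a2 was also lowest, and at 74.6 CPM or more in the other 5. Bmp1, Pcolce and Loxl3 overlapped between the labels. Above 0 were Pcolce2 (2.99 ± 1.36), Tll1 (2.96 ± 1.31), Adamts14 (1.42 ± 0.94), Adamts3 (1.05 ± 1.12) and Loxl3 (0.14 ± 0.72), all with overlapping groups. The medians of the receptor and cleavage lists were -0.75 and -0.83, where that of all tested genes was 0.01.

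Of 6 genes for secretion of procollagen, 5 were tested, and all 5 had log2 fold changes below 0 (49.1% of all tested genes). Their median was -1.01, and none had an unadjusted p under 0.05 (4.29% of all tested genes lower and 4.3% higher). Serpinh1, the collagen chaperone HSP47, stood at 2601, 1363 and 894 CPM in HET and at 1017, 248 and 1147 CPM in KO (-1.01 ± 0.67). Sec23a and Sec24d, coat subunits for export from the endoplasmic reticulum, stood at 130.3 to 232 and 119 to 229 CPM in HET and at 30.5 to 160.2 and 59.4 to 149 CPM in KO.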

How the data were processed

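Total RNA of 6 CAF libraries was sequenced from stranded, ribosomal RNA-depleted libraries (per the labels' protocols). Tools listed in the submitters' processing notes are cutadapt 1.2.1, Bowtie2 and Partek, with GRCm38 and mm10 as builds. Counts rest on a counting method and annotation not given in the sources used here. For each gene the files hold the authors' estimated count (84.4% were whole numbers) and their deposited RPKM value. The deposited RPKM are scaled by gene span, introns included: the implied length kept its ratio to the GENCODE M21 span within 1% of the median in 90.3% of 28474 genes, against 0.485% for summed exons. They were therefore not used to compare genes, in place of the plan, and CPM per kilobase of the APPRIS principal transcript (GENCODE M21) were used instead. Entries named by a biotype instead of a gene (30 per file) were left out, and 7 repeated symbols were summed.

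Estimated counts were rounded, filtered with filterByExpr, scaled by TMM factors and tested with edgeR 4.0.16 in R 4.3.3 (quasi-likelihood F test, two-sided, Benjamini-Hochberg over 17584 genes, threshold 0.05). SE is the absolute log2 fold change over the square root of F. The test was checked on simulated data. Alternatives used DESeq2 1.42.0, limma 3.58.1, other scalings and filters, and fewer libraries. Values in every library are given for collagens with a mean of at least 10 CPM or an unadjusted p under 0.05. Those of Col4a6, Col7a1, Col11a1 and Col15a1 are given outside this rule. The members, lists and rules were chosen with earlier results of these data known. Floors cover counting error only. Replicate numbers follow accession order and pair no libraries.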

Additional observations from a re-analysis of the deposited data

How the results depend on the processing

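Over 17 alternatives, the number of collagens past the adjusted threshold remained 0 except in DESeq2, which called 4 (Col3a1, Col4a5, Col18a1 and Col28a1). Leaving out each library in turn gave 0 throughout. The collagens at an unadjusted p under 0.05 then numbered 5 (without KO replicate 1) to 10 (without KO replicate 2), where the share of all genes was 9.41% and 5.09%. That share ran from 3.63% (without HET replicate 2) to 12.5% (without KO replicate 3). Below every HET library were 8 to 14 collagens (14 without KO replicate 3 and 13 without HET replicate 3, where the share of all genes was 16.3% and 12.5%, against 7.4% with every library). The median log2 fold change was -1.36 (without KO replicate 2) to -0.70 (without HET replicate 1). With HET replicate 3 and KO replicate 3, whose titles share a number, both left out, 15 collagens lay below every HET library (22.7% of all genes) and the median was -1.39. The median was -1.49 with at least 1 CPM required in 3 libraries, where 25 collagens were tested. On log2(RPKM + 1) and log2(RPKM + 0.1), where a mean RPKM of at least 0.1 kept 17 collagens, 2 had an unadjusted p under 0.05 (9.91% and 9.34% of all genes) and 4 lay below every HET library (4.61%). That minimum, on values divided by gene span, left out Col17a1, Col18a1, Col27a1 and Col28a1. Col12a1 was kept but overlapped, with an RPKM of 6.51 in KO replicate 2 and 6.43 in HET replicate 1. On log2(RPKM + 1) without a filter, 4 had an unadjusted p under 0.05 (6.86% of all genes) and the median was -0.0011.

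With library totals alone as scaling, the median of all genes moved to 0.15, with 6760 of 17584 below 0, and that of collagens to -0.81. It was 0.12 for all genes on log2(RPKM + 0.1). The 19 named collagens were picked by mean CPM or unadjusted p in these data, so they do not stand for all tested collagens. Col8a2, outside the 19, reversed without KO replicate 2. Of 315 alternative values for the 19, 310 kept their direction. The 5 that reversed were of Col5a3 (0.93 without HET replicate 1, the lowest such value being -2.37) and Col16a1 (-0.053 without HET replicate 2, -0.059 without KO replicate 3, -0.058 with that pair left out, and -0.090 to 0.47 over single libraries left out). The network median reversed to 0.18 without HET replicate 3 (lowest -0.95, without KO replicate 2) and to 0.51 with that pair left out, and the FACIT median to 0.12 without a count filter and to 9.3e-05 on log2(RPKM + 1) without a filter. The cause was not tested. No paired analysis was possible because the labels share 1 title number between 1 HET and 1 KO library only. With a term for that number, 6 collagens had an unadjusted p under 0.05 (6% of all genes), without Col3a1, Col5a1 and Col12a1 and with Col6a2.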

Other observations

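The length used changes how the collagen chains compare with each other. Col1a1 over Col1a2 in HET replicate 1 read 2.12 on deposited RPKM, which divide by gene span, 1.83 per kilobase of summed exons and 0.873 per kilobase of principal transcript. The fibrillar share of collagen in HET replicate 2 read 70.8% on deposited RPKM and 55.3% per kilobase of transcript, and the network share read 9.99% and 25.2%. With summed exons as the length, the shares were 51.2% and 28.6%. In KO replicate 2 the network share read 26.8% on deposited RPKM and 50.0% per kilobase of transcript, so that beaded filament genes (48.5%) led there on deposited RPKM. Differences of 1 gene between libraries do not depend on the length used.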
